A study of Homo sapiens with 4 samples.

Results

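The 32 genes described here are targets of p53, the transcription factor that responds to DNA damage and other stress, and they were taken by symbol from a table of 23362 genes. The symbols found 31 of them, and TIGAR was found by its gene identifier because the table lists it under its older name C12orf5. The data came from MKN28 cells, a human gastric adenocarcinoma line, made with a tet-on viral system for luciferase (Luc), KIAA1324 WT, 3NQ or ΔTM. KIAA1324 is a transmembrane glycoprotein, 3NQ has glutamine in place of asparagine at its putative N-glycosylation sites, and ΔTM lacks the transmembrane domain. The KIAA1324 lines had been selected with G418 and puromycin, the selection of the Luc line is not given, and the sources used here do not give whether doxycycline was present before the RNA was taken. Each group was 1 library of poly(A) RNA, so that no difference could be set against replicate spread and no p-value is given.

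In cells, p53 binds DNA as a tetramer and switches on genes that stop the cell cycle, repair DNA, adjust metabolism or start cell death. Some of its targets act back on it, the best known being MDM2, the ubiquitin ligase that marks p53 for degradation. In the stomach, as in other epithelia, its targets respond to DNA damage, and several of the genes below are also known to respond to stress without p53.

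The values are FPKM, fragments scaled to transcript length and to the mapped total, as the authors estimated them. The summed FPKM of the table lay between 560540 and 585104, and the depth of the libraries is unknown. KIAA1324 was measured at 2.86 FPKM with Luc, 11185 with WT, 8197 with 3NQ and 0 in the library with the ΔTM label, so that this library is named by its label only. The 6 epithelial markers EPCAM, CDH1, KRT8, KRT18, KRT19 and CLDN4 ranged from 174 to 8501 over all libraries, whereas the leukocyte markers PTPRC, CD3E and CD14 did not pass 0.153. Of the fibroblast and endothelial markers measured, COL1A1 alone reached an FPKM of 1, with values from 12.1 to 15.3. In bulk libraries such as these, fewer cells that express a gene and less of its RNA in each cell cannot be told apart.

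Among the 32 genes, 28 reached an FPKM of 1 in some library, as did 11769 genes of the whole table. The 4 others were near 0 in every library. TP53INP1, which promotes p53-dependent death and autophagy, was listed at 0 in Luc, WT and the ΔTM-labelled library and at 0.0105 in 3NQ. EDA2R, a death receptor of the TNF receptor family, did not pass 0.0712, and CMBL, a hydrolase, did not pass 0.0195. SPATA18, a factor of mitochondrial quality control, was highest in Luc at 0.136 and was listed at 0 in WT and 3NQ. No ratio is given for these 4 genes.

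The DNA that p53 binds is a pair of half-sites of 10 bases, each with a core of C, A or T at both middle positions, and G. The p53 response element consensus with no spacer was searched on both strands of GRCh37, the build of the deposited table, from 2000 bases before to 5000 bases after the start of each gene. A window held a match where at least 19 of the 20 positions fitted the consensus. Matches lay in 6 of the 28 windows (21.4%), compared to 149 of the 11769 windows of all genes (1.27%). With at most 2 positions departing, the shares were 46.4% and 15.8%. The 28 genes are known as p53 targets, so that this difference describes the list and is not a result of these libraries.

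**Figure D1:**
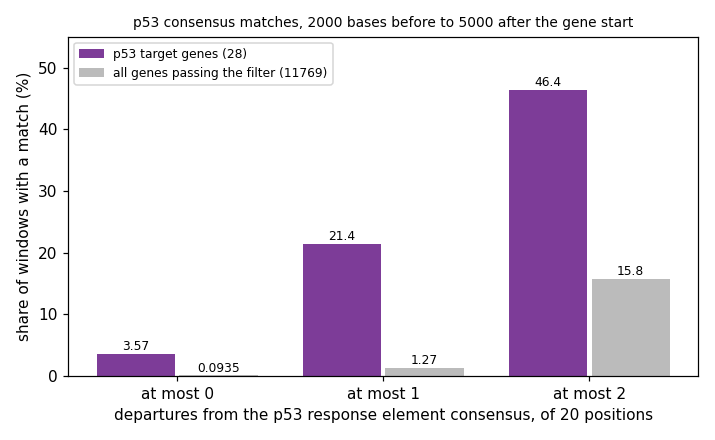
Share of gene-start windows (y axis, %) that hold the p53 response element consensus with at most 0, 1 or 2 of its 20 positions departing (x axis), for the 28 p53 target genes (purple) and for all 11769 genes (grey). At most 1 departure was found in 21.4% and 1.27% of the windows, respectively.

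The matching sequences outside RRM2B are given on the strand of their gene, 5′ to 3′. The search allowed no spacer and covered a limited window, so that a gene without a match may still hold a p53 element. The capitals mark the core of each half-site, and in DDB2 the departing position lies in the first core.
ZMAT3: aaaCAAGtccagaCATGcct
GADD45A: gaaCATGtctaagCATGctg
DDB2: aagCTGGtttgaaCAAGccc
CCNG1: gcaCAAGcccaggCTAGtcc
PERP: aggCAAGctccagCTTGttc

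In ZMAT3, all 20 positions fitted, as in 11 of the 11769 windows (0.0935%), and the match lay at chr3:178787976-178787995 on the minus strand, 2072 bases inside the gene. The GADD45A match was at chr1:68152458-68152477 on the plus strand, 1714 bases inside the gene. The CCNG1 match was at chr5:162864932-162864951 on the plus strand, and the PERP match at chr6:138425207-138425226 on the minus strand. By the GENCODE annotation on GRCh37, these 4 matches and that of RRM2B were intronic in every transcript of the gene that spans them. The DDB2 match, at chr11:47236520-47236539 on the plus strand, lay 27 bases after the gene start and was exonic in 1 of the 3 transcripts that span it. These 6 genes did not move together. Their log2 ratios of WT to Luc, on FPKM with a pseudocount of 1, were 0.12 for ZMAT3, 0.63 for GADD45A, −0.57 for DDB2, −0.025 for CCNG1, −0.026 for PERP and −0.047 for RRM2B.

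FPKM is scaled by length, so that levels can be compared between genes. PERP, a membrane protein of cell junctions that can also promote death, was the most abundant, at 504 FPKM with Luc, 495 with WT, 422 with 3NQ and 420 in the ΔTM-labelled library. In Luc it stood at percentile 98.8 of the 11769 genes. The least abundant in Luc was GADD45G, at percentile 12.6. The median FPKM of the 28 genes was 18.6 in Luc, 17.3 with WT, 18.9 with 3NQ and 17.0 in the ΔTM-labelled library, beside 16.2, 16.3, 15.7 and 15.5 for all genes.

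**Figure D2:**
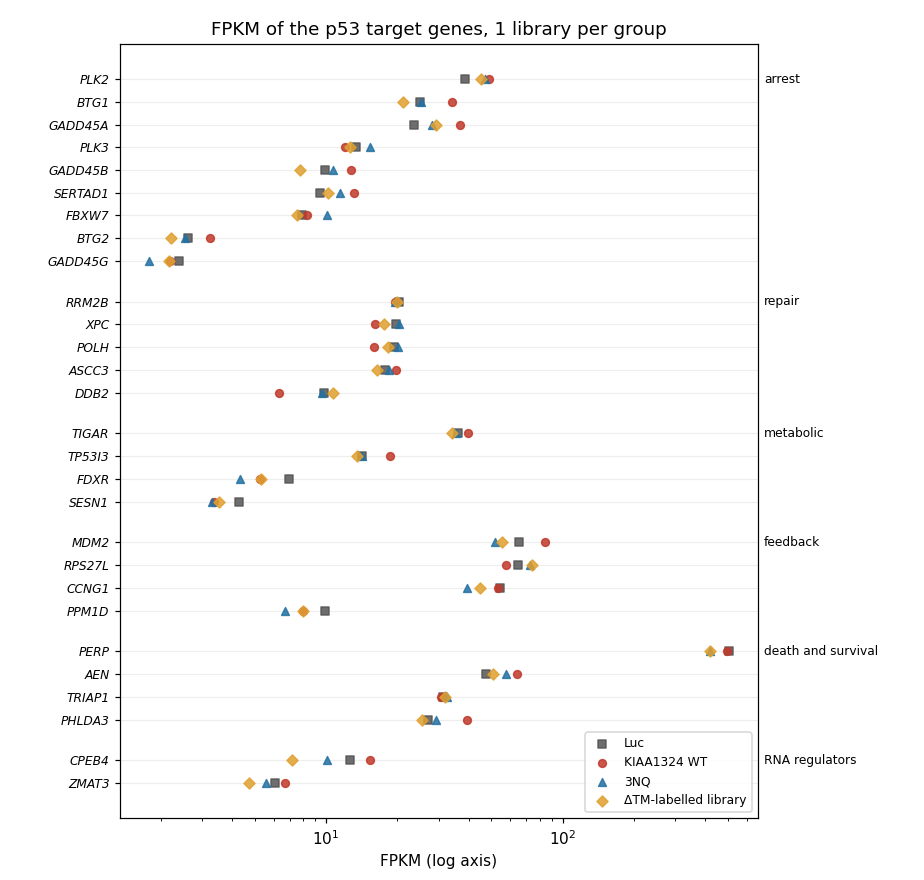
FPKM (x axis, log scale) of the 28 p53 target genes (y axis, grouped by role) in the Luc, KIAA1324 WT, 3NQ and ΔTM-labelled libraries, 1 point for each library. PERP lies between 420 and 504, and GADD45G between 1.78 and 2.39.

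Compared to Luc, at most 1 of the 28 genes reached 1.5-fold in each library. In WT, 1 gene was at least 1.5-fold higher, GADD45A, and 0 were lower. By this threshold, 3.36% of all genes were higher and 3.34% lower. In 3NQ, 0 genes were higher and 0 lower, compared to 1.77% and 2.57% of all genes. In the ΔTM-labelled library, 0 were higher and 1 was lower, CPEB4, compared to 1.54% and 1.57%. In a list of 28 genes, counts of 0 and 1 cannot be told apart from shares of this size. For the 28 genes, the median log2 ratio was 0.088 with WT, 0.0091 with 3NQ and −0.093 in the ΔTM-labelled library, beside −0.0049, −0.038 and −0.060 for all genes. With no filter on low values, which admits the 4 genes near 0, the median in WT was −0.011. The 3 comparisons share the Luc library, so that an unusual value in Luc moves all of them. After rescaling by the median of ratios, 60.5% of the calls over all genes in the ΔTM-labelled library were higher, compared to 49.5% without it.

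**Figure D3:**
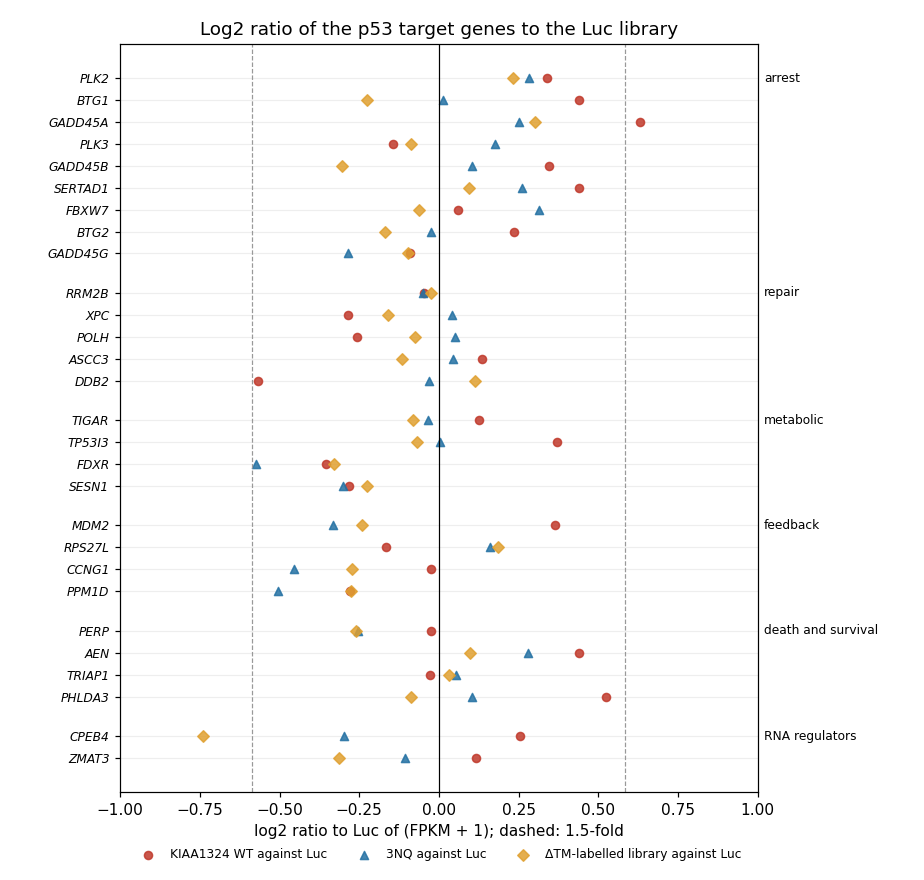
Log2 ratio to Luc of FPKM + 1 (x axis) for the 28 p53 target genes (y axis, grouped by role) in WT, 3NQ and the ΔTM-labelled library, with dashed lines at 1.5-fold. GADD45A in WT (0.63) and CPEB4 in the ΔTM-labelled library (−0.74) lie outside the lines.

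Among the roles, the arrest genes had the highest median ratio of WT to Luc. These 9 genes restrain or steer the cell cycle, and their median log2 ratio to Luc was 0.34 with WT, 0.18 with 3NQ and −0.087 in the ΔTM-labelled library. In WT, 7 of the 9 were above Luc, and the same number were in 3NQ, and 3 in the ΔTM-labelled library, beside 49.1%, 43.0% and 37% of all genes.

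GADD45A, a nuclear stress protein that inhibits entry into mitosis, lies on chromosome 1 from 68150744 to 68154021 (GRCh37, ENSG00000116717) and reached 23.4 FPKM with Luc, 36.8 with WT, 28.1 with 3NQ and 29.1 in the ΔTM-labelled library. Thus, Luc was the lowest of the libraries and WT the highest, with a log2 ratio of 0.63, at percentile 97.2 of all genes. The ratio was 0.56 with a pseudocount of 5 and 0.35 against the mean of 3NQ and the ΔTM-labelled library, both under 1.5-fold on the log2 scale. GADD45B, its relative that is also induced by cytokines, had values of 9.85, 12.8, 10.7 and 7.78 in the same order. Here WT was again the highest, but the ΔTM-labelled library was below Luc (−0.31). GADD45G, the rarest of the family, had 2.39, 2.18, 1.78 and 2.17, and its log2 ratio to Luc lay between −0.29 and −0.091. GADD45A supplied 65.7% of the summed FPKM of the family in Luc, 71.1% with WT, 69.3% with 3NQ and 74.5% in the ΔTM-labelled library.

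BTG1 and BTG2 are antiproliferative proteins that recruit the mRNA deadenylase complex. BTG1 reached 24.9 FPKM with Luc, 34.2 with WT, 25.2 with 3NQ and 21.2 in the ΔTM-labelled library, with log2 ratios of 0.44, 0.014 and −0.22. WT alone stood above the others. BTG2 was likewise highest in WT and lowest in the ΔTM-labelled library, at a much lower level, with 2.60, 3.24, 2.54 and 2.21. BTG1 made up between 90.5% and 91.3% of the summed FPKM of the pair in every library.

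PLK2 and PLK3 are stress-responsive relatives of the mitotic kinase PLK1. PLK2 reached 38.5 FPKM with Luc, 48.9 with WT, 47.0 with 3NQ and 45.4 in the ΔTM-labelled library. It was thus lowest in Luc and nearly level among the other libraries, with log2 ratios of 0.34, 0.28 and 0.23. PLK3 had 13.4, 12.0, 15.3 and 12.6, highest in 3NQ and lowest in WT. SERTAD1, a regulator of CDK4 and of E2F activity, had 9.42, 13.1, 11.5 and 10.1, and its log2 ratio of 0.44 in WT was close to that of BTG1. FBXW7, the substrate receptor of a ubiquitin ligase for cyclin E and MYC, had 7.93, 8.32, 10.1 and 7.55, and was highest in 3NQ (0.31).

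WT and the ΔTM-labelled library each had 4 of the 5 repair genes below Luc, and 3NQ had 2. The 4 genes in WT include RRM2B, at a log2 ratio of only −0.047. Of the 11769 genes, 5988 were below Luc with WT, 6706 with 3NQ and 7412 in the ΔTM-labelled library. The median log2 ratio of the repair genes was −0.26 with WT, 0.042 with 3NQ and −0.074 in the ΔTM-labelled library. DDB2, which recognises ultraviolet lesions in chromatin for nucleotide excision repair, lies on chromosome 11 from 47236493 to 47260767 (ENSG00000134574) and reached 9.83 FPKM with Luc, 6.31 with WT, 9.61 with 3NQ and 10.7 in the ΔTM-labelled library. WT was the lowest, and the other 3 libraries lay close together. Its log2 ratio in WT was −0.57, just inside the 1.5-fold threshold of 0.585 and at percentile 3.59 of all genes, and it was −0.63 with a pseudocount of 0.1 and −0.61 against the mean of 3NQ and the ΔTM-labelled library.

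XPC, the partner of DDB2 that opens nucleotide excision repair, reached 19.8 FPKM with Luc, 16.1 with WT, 20.4 with 3NQ and 17.6 in the ΔTM-labelled library. POLH, the polymerase that copies past ultraviolet lesions, had 19.3, 16.0, 20.1 and 18.3. Both were lowest in WT and highest in 3NQ, with log2 ratios in WT of −0.28 and −0.26. RRM2B, the p53-inducible subunit of ribonucleotide reductase, was the steadiest of the 28 genes, with 20.2, 19.5, 19.5 and 19.9. Its largest log2 difference between any libraries was 0.051, at percentile 0.578 of all genes. ASCC3, a helicase that serves alkylation repair, had 17.8, 19.7, 18.4 and 16.3, and was the one repair gene above Luc in WT (0.14).

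Arrest and repair genes were also compared without Luc, in comparisons that share the WT library with the ratio of WT to Luc. The median log2 ratio of WT to 3NQ was 0.19 for the arrest genes and −0.31 for the repair genes. Against the ΔTM-labelled library, it was 0.33 and −0.13. Between 3NQ and the ΔTM-labelled library, which uses neither Luc nor WT, the medians were 0.16 and 0.13. The ranges of the WT comparisons overlapped, since PLK3, an arrest gene, had −0.32 against 3NQ, and ASCC3, a repair gene, had 0.25 against the ΔTM-labelled library.

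The metabolic genes followed no common direction in WT. Of the 4 measured, 2 were above and 2 below Luc, and the median was −0.077 with WT, −0.17 with 3NQ and −0.15 in the ΔTM-labelled library. The median in WT changed sign when an FPKM of at least 5 was required (0.13). TP53I3, a quinone oxidoreductase tied to reactive oxygen, reached 14.2 FPKM with Luc, 18.6 with WT, 14.2 with 3NQ and 13.5 in the ΔTM-labelled library. WT alone was apart, with a log2 ratio of 0.37. TIGAR, which lowers glycolytic flux by cleaving fructose-2,6-bisphosphate, had 36.2, 39.7, 35.3 and 34.2, a narrow range. FDXR, the mitochondrial ferredoxin reductase that feeds electrons to iron-sulfur and steroid synthesis, was highest in Luc, with 6.95, 5.23, 4.34 and 5.33. Its log2 ratio was −0.57 in 3NQ, at percentile 2.75 of all genes, and −0.67 with a pseudocount of 0.1. SESN1, a sestrin that restrains mTORC1, was also highest in Luc, with 4.30, 3.36, 3.30 and 3.54.

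Among the feedback genes, MDM2 alone was above Luc in WT. MDM2, on chromosome 12 from 69201956 to 69239214 (ENSG00000135679), reached 65.5 FPKM with Luc, 84.6 with WT, 51.8 with 3NQ and 55.3 in the ΔTM-labelled library. It was highest in WT and below Luc in 3NQ and the ΔTM-labelled library, with log2 ratios of 0.36, −0.33 and −0.24. PPM1D, the phosphatase WIP1 that removes activating phosphates from p53 and ATM, had 9.88, 7.97, 6.67 and 7.99, highest in Luc and lowest in 3NQ (−0.51). CCNG1, cyclin G1, which brings a phosphatase to MDM2, had 54.3, 53.4, 39.4 and 44.8. Luc and WT were level for CCNG1, and the other libraries were lower (−0.45 in 3NQ and −0.27 in the ΔTM-labelled library). RPS27L, a ribosomal protein paralog that binds MDM2, went the other way, with 64.8, 57.7, 72.5 and 73.9, lowest in WT. RPS27L resembles RPS27 closely, and reads shared between them may have been divided by the authors' correction for multi-mapped reads.

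For these 4 feedback genes, the median log2 ratio to Luc was −0.095 with WT, −0.39 with 3NQ and −0.26 in the ΔTM-labelled library. Against the mean of 3NQ and the ΔTM-labelled library, the median in WT was 0.23, a change of sign. MDM4, the MDM2 relative that inhibits p53, stayed between 2.74 and 3.79. The FPKM of MDM2 was 17.8 times that of MDM4 in Luc, 22.3 times in WT, 16.3 times in 3NQ and 20.1 times in the ΔTM-labelled library.

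Of the death and survival genes, PHLDA3, which blocks AKT at the membrane, reached 27.0 FPKM with Luc, 39.3 with WT, 29.1 with 3NQ and 25.4 in the ΔTM-labelled library. AEN, an apoptosis-enhancing nuclease, had 47.2, 64.3, 57.5 and 50.5. Both were highest in WT, with log2 ratios of 0.52 and 0.44, at percentiles 95.5 and 93.3 of all genes. TRIAP1, a small mitochondrial protein that protects from apoptosis, had 31.2, 30.6, 32.4 and 31.9. TRIAP1 and PERP hardly differed between Luc and WT (−0.027 and −0.026), and PERP was lower in 3NQ and the ΔTM-labelled library (−0.26 in each).

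CPEB4 and ZMAT3 bind RNA. CPEB4, which controls translation through poly(A) tail length and lies on chromosome 5 from 173315283 to 173388979 (ENSG00000113742), had the widest log2 range of the 28 genes, at 12.7 FPKM with Luc, 15.3 with WT, 10.1 with 3NQ and 7.18 in the ΔTM-labelled library. Its log2 ratio to Luc was 0.26, −0.30 and −0.74, and the last was at percentile 0.773 of all genes. With a pseudocount of 5, the ratio of the ΔTM-labelled library was −0.54, under 1.5-fold. ZMAT3, a zinc finger protein that affects splicing and mRNA stability, had 6.08, 6.67, 5.58 and 4.70, the same order as CPEB4 in a smaller range.

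To set WT beside 3NQ and the ΔTM-labelled library without Luc, the libraries were compared directly. Against the ΔTM-labelled library, WT was at least 1.5-fold higher for 5 genes and lower for 1, where 4.25% and 2.91% of all genes were. The higher genes were CPEB4 (1.00), BTG1 (0.66), GADD45B (0.65), PHLDA3 (0.61) and MDM2 (0.61), and the lower gene was DDB2 (−0.68). PHLDA3 (0.56) and MDM2 (0.55) fell short of 1.5-fold after rescaling by the median of ratios. With this rescaling, 47.5% of the calls over all genes were higher in WT, compared to 59.3% without it. The median of the 28 genes was 0.22, beside 0.047 for all genes.

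Against 3NQ, WT was at least 1.5-fold higher for 1 gene, MDM2 (0.70), and lower for 0, where 2.89% and 1.58% of all genes were. CPEB4 (0.55) and DDB2 (−0.54) were next, and both reached 1.5-fold with a pseudocount of 0.1 (0.59 and −0.60). The median of the 28 genes was 0.19, beside 0.025 for all genes, and 21 of the 28 were above 3NQ, as were 54.8% of all genes. Between 3NQ and the ΔTM-labelled library, 0 genes were higher and 0 lower by 1.5-fold, compared to 1.46% and 1.88% of all genes. The largest log2 differences were those of CPEB4 (0.44) and GADD45B (0.41), both higher in 3NQ.

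Across the 4 libraries, the FPKM was highest in WT for 14 of the 28 genes, in Luc for 7, in 3NQ for 5 and in the ΔTM-labelled library for 2. Of all genes, 33.6% were highest in WT, 30.6% in Luc, 19% in 3NQ and 16.8% in the ΔTM-labelled library. The FPKM was lowest in Luc for 4 genes, in WT for 6, in 3NQ for 7 and in the ΔTM-labelled library for 11, compared to 18.3%, 26.7%, 23.2% and 31.8% of all genes. Of the 9 arrest genes, 6 were highest in WT, whereas 3 of the 5 repair genes were lowest there. The median range over the libraries was 0.42 on the log2 scale, beside 0.31 for all genes.

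**Figure D4:**
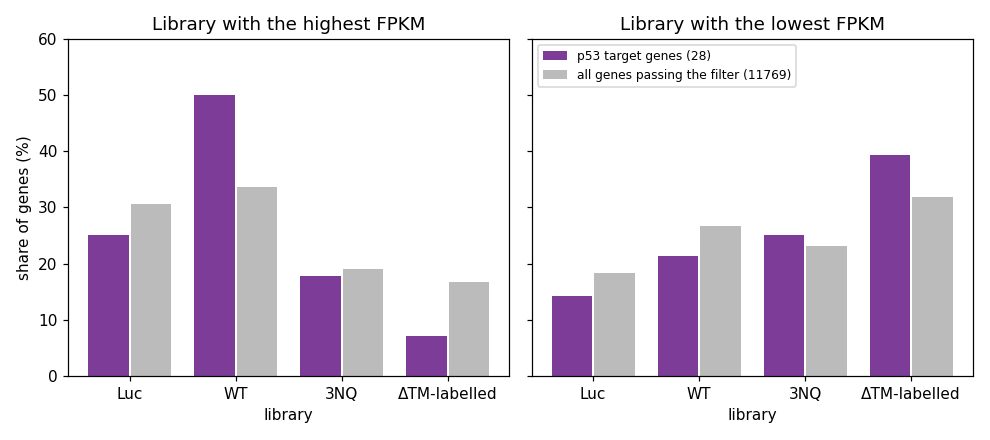
Share of genes (y axis, %) whose FPKM was highest (left) or lowest (right) in each library (x axis), for the 28 p53 target genes (purple) and all 11769 genes (grey). The WT library held the highest value of 14 of the 28 genes and of 33.6% of all genes.

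Of 16 regulators of the pathway, 15 passed the filter, and 1 reached 1.5-fold in WT, CHEK2, the checkpoint kinase that phosphorylates p53, where 3.34% of all genes were lower by this threshold. The count was 0 against the mean of 3NQ and the ΔTM-labelled library. CHEK2 reached 29.0 FPKM with Luc, 17.6 with WT, 23.2 with 3NQ and 30.6 in the ΔTM-labelled library, lowest in WT like DDB2. No regulator reached 1.5-fold in 3NQ or the ΔTM-labelled library against Luc, and the median of the 15 was −0.0050 with WT, −0.098 with 3NQ and −0.15 in the ΔTM-labelled library.

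A further list of 44 p53 targets, of which 43 passed the filter, had a median log2 ratio to Luc of 0.10 with WT, 0.010 with 3NQ and −0.051 in the ΔTM-labelled library. In WT, 5 were at least 1.5-fold higher and 3 lower, beside the 3.36% and 3.34% of all genes given above. With a 2-fold threshold, 0 were higher and 1 was lower, beside 79 and 67 of all 11769 genes. With a pseudocount of 5, 3 were higher, beside 147 of all genes. The lower count was 5 with a pseudocount of 0.1, beside 659. It was 0 against the mean of 3NQ and the ΔTM-labelled library and 1 when Luc was averaged with these as the control. The higher ones were TRIM22 (0.96), an interferon-inducible ligase, SESN2 (0.88), the SESN1 relative, CDKN1A (0.76), the CDK inhibitor p21, ATF3 (0.70), a stress transcription factor, and GDF15 (0.64), a secreted stress cytokine. Thus, SESN2 and SESN1 lay on opposite sides of Luc in WT, SESN2 going from 8.57 FPKM with Luc to 16.6 with WT. The lower ones were TGFA (−3.53), a ligand of the EGF receptor, ANKRA2 (−0.67), an ankyrin repeat protein, and TM7SF3 (−0.66), a membrane protein. In 3NQ, TNFRSF10C (0.63), a decoy receptor, and TRIM22 (0.62) were higher, and TGFA (−3.29) and ACER2 (−1.01), a ceramidase, were lower. TNFRSF10C had 0.365 FPKM with Luc, 0.956 with WT, 1.11 with 3NQ and 0.409 in the ΔTM-labelled library. It passed the filter through 3NQ alone, so that its call there is not independent of the filter. The higher count in 3NQ was 1 where an FPKM of at least 5 was required. It was 0 with a pseudocount of 5 or a 2-fold threshold. The lower count in 3NQ was 1 where an FPKM of at least 5 was required and 1 with a pseudocount of 5, leaving TGFA. In the ΔTM-labelled library, TGFA (−3.08) alone reached 1.5-fold.

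Some of these levels may have gained or lost reads where genes overlap. The sources used here do not state that the counting used strand, and strand does not separate transcripts on the same strand. By the GENCODE annotation, exons of an antisense transcript cover 24.6% of the exon bases of XPC. Exons of other transcripts on the same strand cover 18.4% of those of PHLDA3, 18.1% of those of TIGAR and 10.4% of those of BTG1. By this annotation, these overlapping transcripts are non-coding at XPC, PHLDA3 and BTG1, and the authors used a mask for non-coding regions. The TIGAR overlap is with a protein-coding gene. The part of these overlaps in the values was not tested.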

How the data were processed

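Poly(A) RNA libraries of MKN28 cells, 1 each for Luc, KIAA1324 WT, 3NQ and ΔTM, were grouped by their titles. The authors removed reads of low quality, used TopHat for alignment to GRCh37, and obtained the deposited FPKM from Cufflinks 2.1.1 with a mask for non-coding regions and its multi-read and fragment bias corrections. The table held no counts, so the depth and the precision it gives are unknown. A fold threshold replaced the authors' Cuffdiff test.

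From the FPKM, log2 ratios with a pseudocount of 1 were computed for the 11769 genes that reached an FPKM of 1 in some library (Python 3.11.15, numpy 2.4.6, pandas 2.3.3), and a gene was called at 1.5-fold. The scale understates changes of low genes. Rows were used as deposited, and of the 166 that repeat a symbol 0 belong to the 32 genes. All 32 genes were named, with MDM4, CDKN1A and each gene of 2 further pathway lists past the threshold against Luc. A further gene that this rule names is not reported here. The members, roles and lists were chosen from general knowledge with earlier results of these data known. Sequences were read with pysam 0.24.0, and figures drawn with matplotlib 3.10.9. The calling step was tested on simulated data with planted changes larger than 1.5-fold, and the search on a sequence with a known match. This does not show how reliable the 1.5-fold calls are, since the spread between replicate libraries is unknown. Other pseudocounts, filters, scalings, thresholds and controls were tried, and those for comparisons without Luc, and the omission of TIGAR, were chosen after seeing the data.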

Additional observations from a re-analysis of the deposited data

Results flagged for a closer look

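A p53 target gene was singled out where WT and either 3NQ or the ΔTM-labelled library lay on opposite sides of Luc and differed from each other by at least 1.5-fold. Each group was 1 library, and these differences were not tested. The share of all genes that meet this rule was not counted. By the 1.5-fold part alone, 4.25% of all genes were higher and 2.91% lower in WT against the ΔTM-labelled library. Against 3NQ, these shares were 2.89% and 1.58%. Against the ΔTM-labelled library, the log2 ratio of WT was 1.00 for CPEB4, 0.66 for BTG1, 0.65 for GADD45B, 0.61 for PHLDA3, 0.61 for MDM2 and −0.68 for DDB2. Against 3NQ, it was 0.70 for MDM2, the one gene singled out in both comparisons. After rescaling by the median of ratios, PHLDA3 (0.56) and MDM2 (0.55) fell short of 1.5-fold against the ΔTM-labelled library.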

How the results depend on the processing

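No paired analysis was possible because each group was 1 library, and no replicate could be left out. With a 2-fold threshold, 0 of the 28 p53 targets were called in any comparison, where the main counts were 1 higher in WT and 1 lower in the ΔTM-labelled library against Luc, 1 higher in WT against 3NQ, and 5 higher and 1 lower in WT against the ΔTM-labelled library. With a pseudocount of 5, 0 were higher in WT and 0 lower in the ΔTM-labelled library against Luc, and WT had 1 higher and 0 lower against the ΔTM-labelled library. With a pseudocount of 0.1, 1 was lower in WT and 1 in 3NQ against Luc, and WT had 2 higher and 1 lower against 3NQ. Either rescaling left 3 higher in WT against the ΔTM-labelled library. Of all 11769 genes, 394 were higher there after rescaling by the median of ratios and 421 by the upper quartile. When 3NQ and the ΔTM-labelled library were averaged as the control, 2 were higher in WT, CPEB4 (0.77) and MDM2 (0.65). With this control, 1 was lower, DDB2 (−0.61), and GADD45A (0.35) was not called. Of all 11769 genes, 327 were higher and 197 lower in WT with this control. The median was then 0.23 for feedback and 0.14 for metabolic genes. With the mean of the other 3 libraries, CPEB4 (0.60) was higher, DDB2 (−0.60) was lower and GADD45A (0.45) was not called. Over all genes, 305 were higher and 190 lower with that mean as the control. The feedback and metabolic medians were then 0.099 and 0.057. The share of higher calls over all genes in WT was 62.4% and 61.6% with these controls, beside 50.2% against Luc. With no filter, the median in WT against Luc was −0.011 for all p53 targets and −0.011 for death and survival genes, and WT against the ΔTM-labelled library had 0.12 for all and −0.025 for metabolic genes. The last was −0.023 without TIGAR, and an FPKM of at least 5 gave metabolic genes 0.13 in WT against Luc. Over all genes, the 6 comparisons had 172 to 500 higher and 185 to 393 lower calls, 322 to 770 and 349 to 659 with a pseudocount of 0.1, 57 to 178 and 56 to 140 with a pseudocount of 5, and 47 to 87 and 49 to 85 at 2-fold. A single FPKM has no interval here, since the depth is unknown.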

Other observations

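TGFA, which encodes a ligand of the EGF receptor and belongs to the further list of p53 targets, reached 1071 FPKM with Luc, 91.9 with WT, 108 with 3NQ and 126 in the ΔTM-labelled library. The Luc library thus stood apart from the other 3, which lay close together, and Luc is the control of every ratio to Luc given above. TRIM22 was lowest in Luc, and the other libraries were spread out, with 3.17 in Luc, 7.13 with WT, 5.39 with 3NQ and 4.74 in the ΔTM-labelled library. ACER2 was lowest in 3NQ, with 3.08 in Luc, 1.99 with WT, 1.03 with 3NQ and 2.68 in the ΔTM-labelled library.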
